A study of Mus musculus with 6 samples.

Results

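Described here are 39 genes of glycolysis and the hypoxia response, of 55291 genes in a count table from mouse tumours. They were chosen by gene symbol, not by measured values, and fall into 2 arms: 23 genes of glucose and lactate transport and glycolysis, and 16 genes made up of 2 HIF alpha subunits and 14 HIF targets. All 39 were found in the table and all 39 passed the low-count filter. The libraries came from CT2A tumours, a mouse glioma line (labelled mouse GBM) growing under the skin of Siglece knockout (KO) mice or wild-type (WT) mice, with 3 libraries per genotype. Siglece encodes Siglec-E, a receptor that binds sialic acid and restrains myeloid cells. The labels put the knockout in the host and name no other allele or treatment, and age, sex, strain and time of tumour growth are not given in them. Each sample held 5000 to 20000 CT2A cells, per the labels, and was prepared by Smart-seq2, which copies whole transcripts into cDNA and leaves strand unmarked. The labels name the tissue as a subcutaneous tumour but the source as brain, and name no sort. Whether the replicates are separate animals is not stated in them, so p-values reflect only how these libraries vary within a group, which may be technical variation.

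Glycolysis turns glucose into pyruvate: glucose enters through the GLUT transporters, is phosphorylated and split, and yields ATP, and lactate dehydrogenase and the MCT transporters turn pyruvate to lactate and carry it across the membrane. The HIF transcription factors pair an oxygen-labile alpha subunit, HIF-1 alpha or HIF-2 alpha, with the stable partner ARNT, and in low oxygen they bind short DNA elements and raise many genes, several glycolytic enzymes among them. Their main oxygen control acts on the protein, through prolyl hydroxylation and degradation, which RNA levels do not show. In gliomas these genes are known for high levels around necrotic, poorly perfused regions. Myeloid and endothelial cells use the same pathways.

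HIF binds a core that reads ACGTG or GCGTG. This core, on either strand, was searched in the promoter windows of RefSeq (GRCm38.p6, 250 bases before to 50 after each start). A window was found for 35 of the 39 genes. Slc2a3, Epas1, Bnip3l and Ndrg1 were not matched. The core stood in at least 1 window of 31 of the 35 genes (88.6%), 19 of 22 in the glycolysis arm and 12 of 13 in the HIF arm, against 12628 of 27025 genes in the whole table (46.7%). Genes with several windows had more chances to hold it; counted by window, the shares were 39 of 48 (81.2%) and 43.8% of all 32851. Gpi1, Tpi1, Eno2 and Car12 held no match in these windows. The following stretches, 5′ to 3′ on the gene's strand with the core in capitals, show it in the called genes that had a window, in the 3 next genes of the glycolysis arm by p, and in 4 genes of the HIF arm. CACGC is the core read from the opposite strand, and CACGTG reads the same on both strands, so it holds the core on each. The 30-base stretches, of Pfkfb4, Aldoc and Slc16a3, overlap an annotated exon of some transcript.
Pfkfb3, chr2:11502111-11502170, minus strand: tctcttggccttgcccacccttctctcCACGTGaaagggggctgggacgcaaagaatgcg
Pfkfb4, chr9:108991772-108991801, plus strand: tttgacggatgggGCGTGcttagtccaaaa
Aldoc, chr11:78324146-78324175, plus strand: gcctcccatccccCACGCtgcatctcttct
Slc16a1, chr3:104638502-104638561, plus strand: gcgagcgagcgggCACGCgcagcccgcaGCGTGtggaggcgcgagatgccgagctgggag
Pfkl, chr10:78009875-78009934, minus strand: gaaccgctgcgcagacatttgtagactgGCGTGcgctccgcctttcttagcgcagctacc
Slc16a3, chr11:120949037-120949066, plus strand: gtgACGTGcgcgggggACGTGccgcgcgac
Ddit4, chr10:59951854-59951913, minus strand: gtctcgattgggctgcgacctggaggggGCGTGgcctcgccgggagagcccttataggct
P4ha2, chr11:54100827-54100886, plus strand: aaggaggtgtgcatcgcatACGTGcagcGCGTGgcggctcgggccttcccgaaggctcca
Pdk1, chr2:71873118-71873177, plus strand: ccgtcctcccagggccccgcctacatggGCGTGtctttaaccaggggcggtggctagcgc
Hif1a, chr12:73907705-73907764, plus strand: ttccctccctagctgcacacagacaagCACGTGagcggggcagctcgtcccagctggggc
The core stood in 25 of 28 genes whose estimated change was below 0 (89.3%) and in 6 of 7 of those above 0 (85.7%). Epas1, Ndrg1 and Bnip3l also had estimates above 0 but had no window, so they are missing from the second group. As nearly all genes with a window held the core, these shares could hardly differ, and nothing is read from them. Of the sequences shown, those of Pfkfb3, Pfkfb4, P4ha2 and Hif1a belong to genes with higher levels in all 3 KO libraries and the others to genes with lower levels there. A match describes these letters only and is not a measured binding site. The whole table of promoters was not matched to these genes in base composition or expression. The higher share among the members therefore cannot be read as an excess of HIF sites.

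The targeted gene Siglece was counted 0, 8 and 0 times in the KO libraries (replicates 1 to 3, in that order here and below) and 74, 99 and 64 times in the WT libraries (log2 fold change -4.66, SE 1.15, adjusted p = 0.0409, edgeR). KO replicate 2 stood apart from the other KO libraries: it was the KO library nearest the WT libraries in 73.6% of all tested genes with an estimate above 0 and in 73.0% of those below 0. It was also the nearest in 17 of the 19 glycolysis genes and 8 of the 10 HIF arm genes with an estimate below 0. By chi-square per degree of freedom over gene counts, KO replicate 2 was closer to WT replicates 2 and 3 (93.3 and 98.4) than to KO replicates 1 and 3 (305 and 414). WT replicate 1 was further from WT replicates 2 and 3 (189 and 196) than KO replicate 2 was. In whole profile KO replicate 2 thus lay nearer to WT libraries than to its own group, and the KO means, spreads and calls below include it. WT replicate 1 had 13.5% of its counts in cytosolic ribosomal protein genes, against 3.56 to 6.56% in the other 5 libraries. Mitochondrially encoded genes took 1.92 to 4.4% of KO counts and 0.717 to 1.13% of WT counts. Library totals ran from 24369359 to 40574093 counts.

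Of the 9 glioma and neural markers, all 9 were detected in WT. All 9 were lower in every KO library than in any WT library (19.5% of all genes tested), with 2 past the threshold (0.226% of all genes passed as lower). Their summed level was 1587 to 3704 CPM (counts scaled to the TMM-adjusted library size) in KO and 4557 to 6169 CPM in WT libraries, and Gfap was at 0 in KO replicate 3. The 8 markers of dividing cells summed to 306 to 1167 CPM in KO against 1570 to 1755 CPM in WT. Of these 8, 6 were lower in every KO library than in any WT library, and 0 passed the threshold. Over all genes tested, 11.2% passed as higher in KO, and in 24.6% all KO libraries were above all WT libraries. Several sets of markers of other cell types were higher in KO: 7 of 8 macrophage markers passed (2801 to 11836 CPM in KO, 1240 to 2050 CPM in WT), 7 of 8 endothelial (316 to 1043 CPM, 69.2 to 96.6 CPM), 7 of 7 fibroblast (12256 to 38400 CPM, 2265 to 3610 CPM), 5 of 8 skeletal muscle (310 to 2462 CPM, 96.4 to 239 CPM) and 4 of 5 tested lymphocyte markers. Of the neutrophil markers 1 of 3 tested passed (42.5 to 219 CPM in KO, 12.4 to 14.8 CPM in WT), of the adipocyte markers 1 of 6 (42.9 to 848 and 10.6 to 26.1 CPM) and of the erythroid markers 0 of 5 (12.8 to 279 and 11.1 to 43.7 CPM, which overlap). The 4 keratinocyte markers summed to 0.342 to 5.14 CPM in KO and 0.0893 to 1.01 CPM in WT, which overlap. Of the 4, 1 was tested (log2 fold change 3.63) and did not pass. Krt5, Krt14 and Krt1 were at 0 to 0.313 CPM in every library, and the rest of the sum was Krt10. The part of these cell types in the results below was not tested. In bulk tumour RNA, fewer cells of a type and less RNA per cell cannot be told apart.

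**Figure D1:**
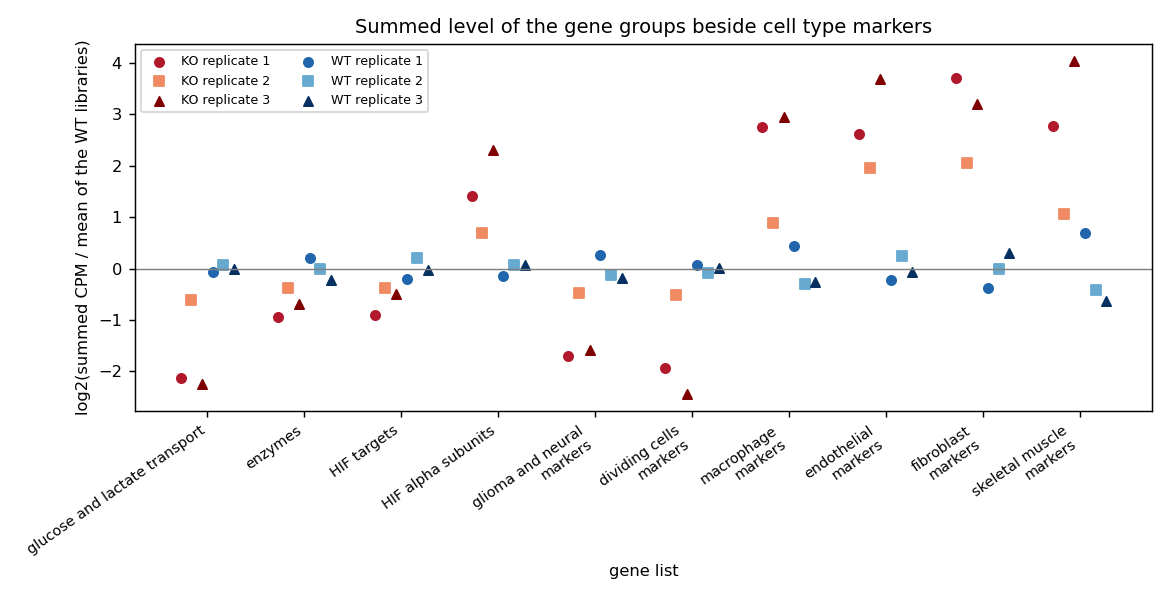
Summed CPM of the gene groups and of cell type markers in each of the 6 libraries, as log2 of the ratio to the mean of the WT libraries (1 point per library). Transport genes, glioma and neural markers and dividing cell markers lie below 0 in the KO libraries, the HIF alpha subunits and the macrophage, endothelial and fibroblast markers lie above it, and KO replicate 2 is the KO library closest to 0 in each of these groups.

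In the glycolysis arm, most transporters and enzymes had lower levels in KO tumours, but few passed the test, while both PFKFB regulators were higher. Of the 23 genes, 2 rose (Pfkfb3 and Pfkfb4), 1 fell (Aldoc) and 20 did not pass (adjusted p under 0.05, quasi-likelihood F test of edgeR over 18621 genes). Among all genes tested 11.2% were called higher and 0.226% lower, so 2 of 23 higher is near the background. The estimate was below 0 in 19 of 23 genes, against 51.7% of all genes, and the median log2 fold change was -0.55, against -0.05 over all genes. All KO libraries were below all WT libraries in 11 of 23 genes (19.5% of all genes) and above them in 2 (24.6% of all genes). The arm took 0.543 to 0.948% of the counts of a KO library and 1.12 to 1.29% of a WT library, so the groups did not overlap.

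**Figure D2:**
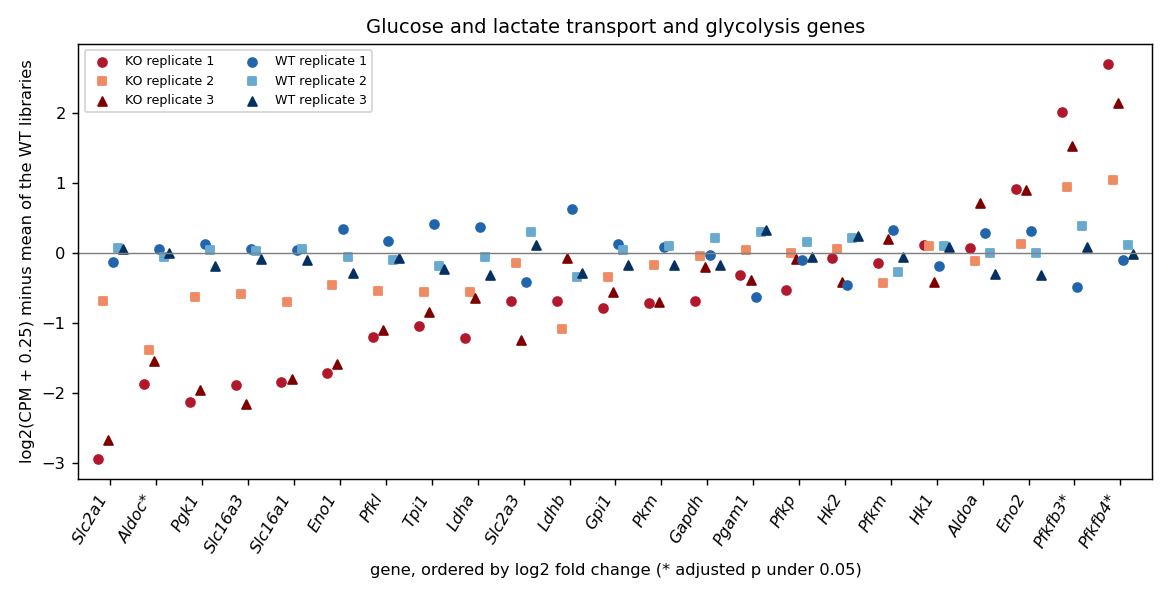
Level of each of the 23 glycolysis genes in each library, as log2(CPM + 0.25) minus the mean of the WT libraries, with genes ordered by log2 fold change and a star at an adjusted p under 0.05. On the left the KO libraries lie below the WT libraries, with KO replicate 2 usually between them, and on the right Pfkfb3 and Pfkfb4 lie above in all 3 KO libraries.

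The 4 transporters had estimates below 0 in KO, with a median log2 fold change of -1.36, and 0 of the 4 passed the threshold. Slc16a1 encodes MCT1, a transporter of lactate and pyruvate. The KO libraries were at 19.0, 42.6 and 19.7 CPM and the WT libraries at 71.0, 72.0 and 64.4 CPM (log2 fold change -1.35, SE 0.36, adjusted p = 0.0508, edgeR). The groups did not overlap, KO replicate 2 lay between the other KO libraries and WT, and the gene missed the threshold narrowly. Slc16a3 encodes MCT4, the lactate exporter of highly glycolytic cells. It was at 95.3, 235 and 78.8 CPM in KO against 367, 360 and 332 CPM in WT (-1.37, SE 0.45, adjusted p = 0.0884). Again each KO library was below each WT library and KO replicate 2 was the highest of the 3. Slc2a1, the widely expressed glucose transporter GLUT1, had an estimate of -1.72 (SE 0.61, adjusted p = 0.106). Its levels were 58.9, 284 and 71.2 CPM in KO against 414, 476 and 474 CPM in WT, so KO replicate 2 lay well above the other KO libraries and below WT. Slc2a3, the high-affinity transporter GLUT3, ranged from 29.1 to 62.4 CPM in KO against 51.4 to 84.5 CPM in WT, and the groups overlapped (-0.65, SE 0.35). As a share of Slc2a1 and Slc2a3 together, per kilobase of merged exons, Slc2a3 was at 26.1, 9.62 and 16.5% in KO and 5.66, 7.91 and 7.08% in WT. All 3 KO shares were above the WT shares, while the level of Slc2a3 itself was not higher.

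The enzymes that commit glucose to the pathway had estimates closer to 0. Hk1 and Hk2 encode hexokinases, which phosphorylate glucose: the mean CPM of Hk1 was 84.1 ± 16.1 for KO and 87.4 ± 9.57 for WT (SD, n = 3), and that of Hk2 48.4 ± 7.82 and 54.4 ± 13.7. Both overlapped between the groups, with log2 fold changes of -0.05 and -0.17. Gpi1, which isomerises glucose 6-phosphate, was at 405 to 550 CPM in KO against 618 to 759 CPM in WT, groups that did not overlap (-0.55, SE 0.31, adjusted p = 0.244). Phosphofructokinase 1 is the main control point of glycolysis, and its liver-type subunit Pfkl was at 122, 192 and 131 CPM in KO against 314, 261 and 266 CPM in WT (-0.92, SE 0.30, adjusted p = 0.0878). The groups did not overlap. The muscle-type Pfkm (62.0, 51.2 and 78.5 CPM in KO against 86.1, 57.1 and 65.6 CPM in WT) and the platelet-type Pfkp (90.3 to 130 CPM in KO, 121 to 145 CPM in WT) overlapped, with log2 fold changes of -0.12 and -0.19. Per kilobase, Pfkl made up 42.0, 53.5 and 37.5% of the 3 subunits in KO and 57.5, 58.3 and 57.9% in WT. The WT shares were nearly equal and all were above the KO shares.

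Pfkfb3 and Pfkfb4 encode enzymes that make and break fructose 2,6-bisphosphate, the strongest activator of phosphofructokinase 1. Pfkfb3 (ENSMUSG00000026773.19, chromosome 2, 11471433 to 11554077, minus strand, mm10) was at 147, 69.4 and 104 CPM in KO against 25.9, 47.4 and 38.6 CPM in WT. It rose 2.87-fold (log2 fold change 1.52, SE 0.37, adjusted p = 0.0380, edgeR), and its groups did not overlap. Pfkfb4 (ENSMUSG00000025648.18, chromosome 9, 108991778 to 109032228, plus strand) was at 50.9, 16 and 34.5 CPM in KO against 7.10, 8.23 and 7.56 CPM in WT. It rose 4.43-fold (log2 fold change 2.15, SE 0.43, adjusted p = 0.0266). For both, KO replicate 1 was highest and KO replicate 2 lowest of the KO libraries. With all 6 libraries, Pfkfb3 lost the call without composition scaling and with limma-voom, and Pfkfb4 with limma-voom (adjusted p up to 0.0823 and 0.0530). When 1 library was left out, edgeR called either gene only without KO replicate 2. In the other fits that left out 1 library, the adjusted p reached 0.151 for Pfkfb3 (without KO replicate 1) and 0.120 for Pfkfb4 (without WT replicate 3). Per kilobase, Pfkfb4 made up 26.3 to 34.9% of the pair in KO and 21.2 to 29.9% in WT, which overlap.

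Aldolase splits fructose 1,6-bisphosphate, and its brain-type gene Aldoc was the only gene of the 39 called lower. Aldoc (ENSMUSG00000017390.15, chromosome 11, 78322968 to 78327781, plus strand) was at 8.37, 11.8 and 10.6 CPM in KO against 32.6, 30.2 and 31.2 CPM in WT. It was 3.05-fold lower in KO (log2 fold change -1.61, SE 0.27, adjusted p = 0.0246, edgeR). No gene had a smaller adjusted p, but other genes, Epas1 and Ndrg1 among them, shared this value. The 3 KO values of Aldoc lay close together, with KO replicate 2 only slightly above the others. Aldoa, the muscle-type aldolase that carried most of the pair, was at 997, 878 and 1550 CPM in KO against 1161, 947 and 774 CPM in WT, and the groups overlapped (0.25, SE 0.38). Aldoc made up 0.946, 1.51 and 0.769% of the pair per kilobase in KO and 3.09, 3.50 and 4.38% in WT, without overlap. Aldoc is also known as an astrocyte gene. Of the 9 glioma and neural markers, Slc1a3 and Cspg5 were called lower, with log2 fold changes of -2.21 and -3.22, and 7 were not called. Whether the level of Aldoc is linked to them was not tested.

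The 6 genes of the arm with the highest level per length were all enzymes of the aldolase step or later. Per kilobase of merged exons, the WT means were 645 ± 70.2 CPM for Pgk1, 429 ± 104 for Ldha, 425 ± 43.5 for Pkm, 385 ± 86.4 for Eno1, 259 ± 52.3 for Aldoa and 257 ± 68.2 for Tpi1. Pgk1 stood above the others by more than these spreads, Ldha, Pkm and Eno1 lay within their spread of each other, and so did Aldoa and Tpi1. In KO the means were ordered differently, with Aldoa at 308 ± 96.8, Pkm at 298 ± 66.7, Ldha at 246 ± 56.2, Pgk1 at 243 ± 150, Eno1 at 173 ± 90.0 and Tpi1 at 145 ± 25.1 CPM per kilobase.

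Pgk1, an ATP-forming kinase and a HIF target itself, was at 329, 933 and 372 CPM in KO against 1578, 1493 and 1273 CPM in WT (log2 fold change -1.41, SE 0.48, adjusted p = 0.0982). Eno1, the widely expressed enolase, was at 620, 1488 and 681 CPM in KO against 2576, 1965 and 1664 CPM in WT (-1.15, SE 0.47, adjusted p = 0.139). In both genes KO replicates 1 and 3 were far below WT and KO replicate 2 lay between them and the lowest WT library. Tpi1, which interconverts the triose phosphates, was at 337, 473 and 386 CPM in KO against 924, 610 and 590 CPM in WT (-0.83, SE 0.34, adjusted p = 0.144). Ldha, which makes lactate from pyruvate, was at 600, 946 and 892 CPM in KO against 1797, 1345 and 1121 CPM in WT (-0.81, SE 0.38, adjusted p = 0.181). Pkm, pyruvate kinase, was at 1292, 1876 and 1304 CPM in KO against 2245, 2262 and 1877 CPM in WT (-0.51, SE 0.37, adjusted p = 0.350). The groups of all 5 genes did not overlap, though in Pkm KO replicate 2 and WT replicate 3 were nearly equal, and none of the 5 passed. Another gene covers 15.3% of the exonic bases of Pkm, and near-identical copies held 6.67% as many counts, so its level is uncertain. WT replicate 1, with its high ribosomal share, was the highest library for Pgk1, Eno1, Tpi1 and Ldha.

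The remaining lower-pathway genes overlapped between the groups. Pgam1, phosphoglycerate mutase, was at 137 to 184 CPM in KO against 115 to 224 CPM in WT (-0.27), and Ldhb, the lactate dehydrogenase form of oxidative tissue, at 10.6 to 21.7 and 17.9 to 35.4 CPM (-0.63). Eno2, the neuronal enolase, was at 35.1, 20.3 and 34.9 CPM in KO against 23.2, 18.5 and 14.8 CPM in WT (0.67, SE 0.32, adjusted p = 0.189). Eno2 thus had an estimate above 0 where Eno1 had one below it: per kilobase it made up 6.08, 1.53 and 5.54% of the 2 enolases in KO and 1.02, 1.07 and 1.01% in WT, without overlap. Gapdh, the dehydrogenase of the middle of the pathway, was listed at 55.1 to 86.5 CPM in KO against 78.4 to 103 CPM in WT (-0.29). This value is uncertain, because 90 genes, 85 of them annotated pseudogenes, hold a stretch of at least 200 bases with 95% or more identity to its transcripts. The 89 copies in the table held 112.6% of the counts of Gapdh itself. With them, Gapdh was at 103, 168 and 131 CPM in KO (134 ± 32.6) against 261, 201 and 150 CPM in WT (204 ± 55.6), and the groups overlapped. The copies alone were at 175 CPM in WT replicate 1 and at 98.5 and 71.6 CPM in WT replicates 2 and 3. How the authors treated reads with several alignments is not given in the sources used here.

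**Figure D3:**
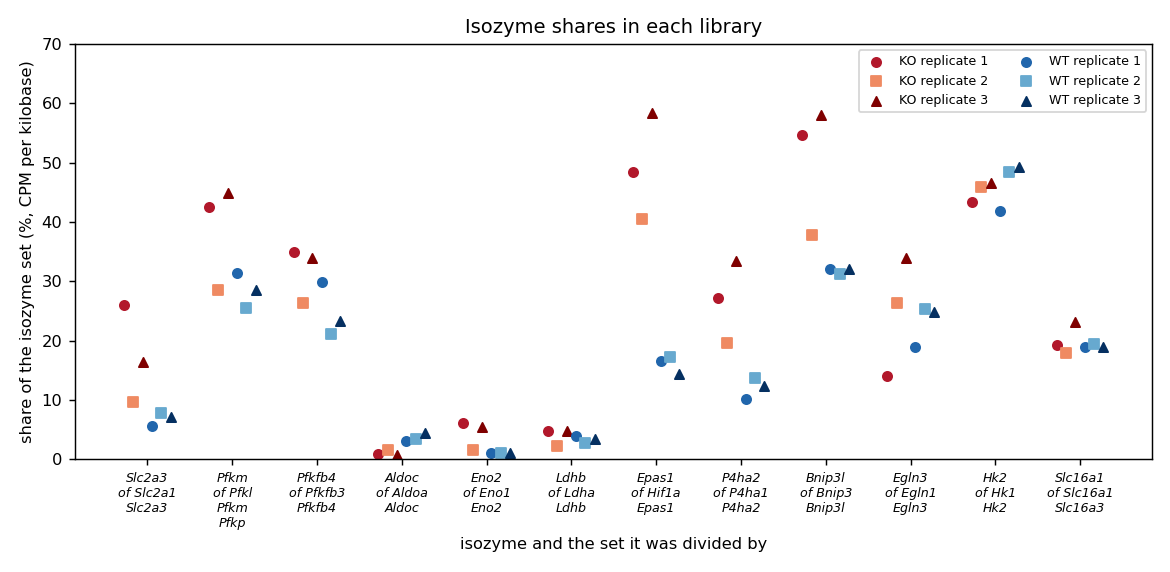
Share of 1 isozyme in its pair or trio in each library, in percent of summed CPM per kilobase of merged exons (1 point per library). The shares of Epas1, P4ha2, Bnip3l, Slc2a3 and Eno2 are higher in all 3 KO libraries than in any WT library, that of Aldoc is lower in all 3, and those of Pfkm, Pfkfb4, Ldhb, Egln3, Hk2 and Slc16a1 overlap.

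The HIF arm held estimates of both signs. Both alpha subunits were higher in every KO library than in any WT library, Epas1 past the threshold. Of the 14 targets, 10 had estimates below 0 (51.7% of all genes) and 1, Ndrg1, rose. Of the 16 genes, 2 were called higher (background 11.2%), 0 lower by edgeR (background 0.226%) and 14 did not pass. Of the 16, 9 had an unadjusted p under 0.05 in edgeR (31.8% of all genes), and 3 were called lower by DESeq2 (6.68% of all genes). All KO libraries were above all WT libraries in 4 genes (background 24.6%) and below them in 6 (background 19.5%). The 2 of 16 called higher and the 4 of 16 above WT are thus near the background. The median log2 fold change was -0.37 for the arm and -0.43 for the 14 targets, against -0.05 for all genes. The arm took 0.104 to 0.145% of KO counts and 0.126 to 0.207% of WT counts, which overlap.

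**Figure D4:**
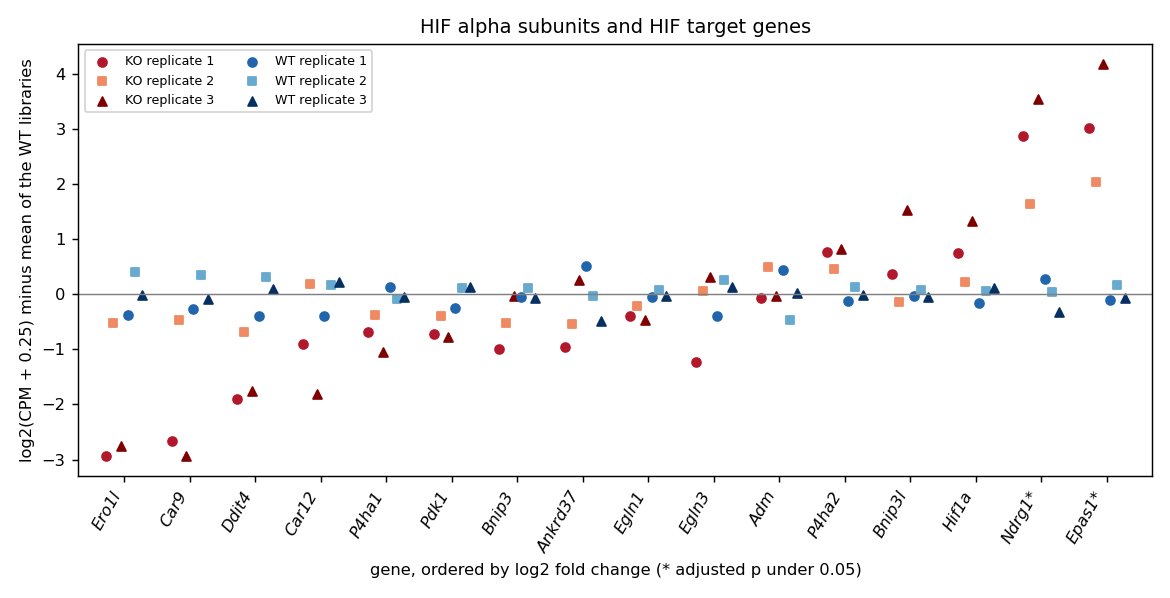
Level of each of the 16 genes of the HIF arm in each library, as log2(CPM + 0.25) minus the mean of the WT libraries, ordered by log2 fold change, with a star at an adjusted p under 0.05. Ero1l, Car9 and Ddit4 lie below the WT libraries in all 3 KO libraries, with KO replicate 2 closest to WT, and P4ha2, Hif1a, Ndrg1 and Epas1 lie above in all 3.

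Epas1 encodes HIF-2 alpha, which is prominent in endothelial cells and macrophages. Epas1 (ENSMUSG00000024140.10, chromosome 17, 86753700 to 86833410, plus strand) was at 138, 69.7 and 308 CPM in KO against 15.5, 18.9 and 15.9 CPM in WT. It was 10.2-fold higher in KO (log2 fold change 3.36, SE 0.54, adjusted p = 0.0246, edgeR), the greatest change of the 39 genes. The lowest KO library, replicate 2, was still far above the highest WT library. Its KO libraries ranked as the summed endothelial (498, 316 and 1043 CPM), macrophage (10261, 2801 and 11836 CPM), skeletal muscle (1018, 310 and 2462 CPM) and neutrophil markers (148, 42.5 and 219 CPM) did. The adipocyte and keratinocyte sums had the same order. The fibroblast (38400, 12256 and 27065 CPM) and lymphocyte sums (710, 253 and 468 CPM) ranked otherwise. So did those of the erythroid, glioma and neural, and dividing cell markers. With 3 libraries an order is easily shared, and a link to any cell type was not tested. Hif1a encodes HIF-1 alpha, the broadly expressed subunit. It was at 155, 108 and 232 CPM in KO against 82.8, 95.7 and 99.4 CPM in WT (0.83, SE 0.33, adjusted p = 0.136). Its groups did not overlap, with KO replicate 2 just above WT replicate 3. Per kilobase, Epas1 made up 48.4, 40.6 and 58.4% of the 2 alpha subunits in KO and 16.5, 17.2 and 14.5% in WT. In WT tumours Hif1a RNA was thus the major form (15.7 ± 1.48 CPM per kilobase against 3.0 ± 0.328), and in KO the 2 were within their spread (28.0 ± 10.7 and 30.8 ± 22.0).

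Among the targets, Ndrg1, a stress-responsive gene often used as a hypoxia marker, was the single one past the threshold. Ndrg1 (ENSMUSG00000005125.13, chromosome 15, 66929318 to 66969640, minus strand) was at 130, 55.4 and 208 CPM in KO against 21.4, 18.1 and 14.1 CPM in WT. It rose 7.35-fold (log2 fold change 2.88, SE 0.49, adjusted p = 0.0246, edgeR). As for Epas1, KO replicate 3 was highest, KO replicate 2 lowest, and the groups did not overlap. Exons of other genes cover 8.43% of its exonic bases, and reads there cannot be assigned without strand.

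Ddit4, Ero1l and Car9 had the estimates furthest below 0 among the targets. Ddit4, which encodes REDD1, a brake on mTORC1, was the target with the highest level per length in both groups (59.1 ± 29.3 CPM per kilobase in KO, 153 ± 36.3 in WT). It was at 70.2, 163 and 77.9 CPM in KO against 199.7, 326 and 279 CPM in WT (-1.37, SE 0.41, adjusted p = 0.0691), and each KO library was below each WT library. Ero1l, the oxidase that drives disulfide formation in the endoplasmic reticulum, was at 56.4, 302 and 64.5 CPM in KO against 333, 575 and 429 CPM in WT (-1.66, SE 0.67, adjusted p = 0.137). Its KO replicate 2 was near the lowest WT library while the other KO libraries were far below. Car9, the tumour carbonic anhydrase that acidifies the space outside the cell, was also highest in KO replicate 2 among the KO libraries, with 12, 55.3 and 9.87 CPM in KO against 64.0, 97.4 and 72.7 CPM in WT (-1.60, SE 0.65, adjusted p = 0.139). Car12, a related carbonic anhydrase, was the gene with the lowest level of the arm, at 0.499 to 2.73 CPM in KO against 1.75 to 2.83 CPM in WT (-0.72), and its groups overlapped.

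Pdk1, the kinase that switches off pyruvate dehydrogenase and so keeps pyruvate out of mitochondria, was at 54.7, 68.6 and 53.0 CPM in KO against 76.5, 98.1 and 99.1 CPM in WT (-0.63, SE 0.25, adjusted p = 0.132), without overlap. The prolyl 4-hydroxylase subunits, which hydroxylate collagen, had estimates of opposite sign. P4ha1 was at 138, 172 and 107 CPM in KO against 245, 209 and 215 CPM in WT (-0.68, SE 0.29, adjusted p = 0.150). P4ha2 was at 78.3, 63.5 and 81.9 CPM in KO against 42.0, 50.5 and 45.8 CPM in WT (0.69, SE 0.24, adjusted p = 0.0984). Neither passed and neither overlapped, so P4ha2 made up 27.2, 19.6 and 33.5% of the pair per kilobase in KO and 10.2, 13.7 and 12.3% in WT. The fibroblast markers, collagen genes among them, were higher in the same KO libraries, in which P4ha2 was higher and P4ha1 lower. Whether either gene is linked to them was not tested.

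Bnip3 and Bnip3l encode mitophagy receptors of the outer mitochondrial membrane. Bnip3 was at 50.4, 70.2 and 98.7 CPM in KO against 97.6, 109 and 96.2 CPM in WT (-0.47, SE 0.30), with KO replicate 3 inside the WT range. Bnip3l was at 103, 72.5 and 232 CPM in KO against 78.7, 84.2 and 77.4 CPM in WT (0.76, SE 0.43), with KO replicate 2 below all WT libraries. Although both overlapped, the share of Bnip3l in the pair per kilobase was 54.6, 37.7 and 58.0% in KO and 32.1, 31.2 and 32.1% in WT, without overlap. Near-identical copies held 26.8% as many counts as Bnip3, and another gene covers 22.3% of its exonic bases, so its level is uncertain.

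The oxygen sensors and feedback genes had estimates of -0.39 to 0.11, with those of Egln1 and Ankrd37 close to the median of the arm (-0.37). Egln1, the main HIF prolyl hydroxylase, was at 78.0, 87.7 and 73.7 CPM in KO against 99.0, 107 and 100.5 CPM in WT (-0.36, SE 0.23, adjusted p = 0.298), close but without overlap. Egln3, a hydroxylase that is itself a HIF target, was at 9.42 to 28.0 CPM in KO against 17.1 to 27 CPM in WT (-0.18). Ankrd37 was at 6.19 to 14.8 and 8.78 to 17.6 CPM (-0.39), and other genes cover 26.4% of its exonic bases. Adm, which encodes the vasodilator peptide adrenomedullin, was at 7.35 to 10.9 and 5.50 to 10.6 CPM (0.11). These last 3 genes overlapped between the groups.

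**Figure D5:**
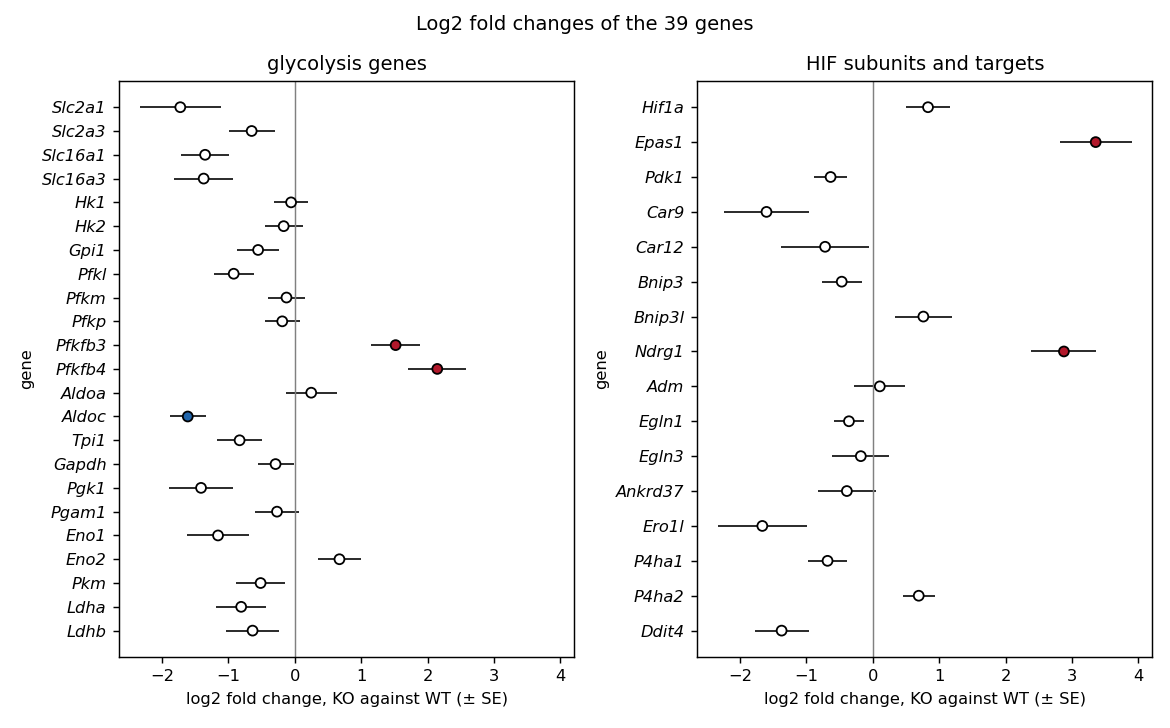
Log2 fold change of KO against WT for each of the 39 genes with its standard error (horizontal bar), the glycolysis arm on the left and the HIF arm on the right. Filled points mark an adjusted p under 0.05 (red higher, blue lower): Pfkfb3, Pfkfb4, Epas1 and Ndrg1 are higher, Aldoc is lower, and most open points lie below 0.

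The count of genes called lower differed with KO replicate 2 and with the tool. Without that library, edgeR called 8 of the 39 higher (22.7% of all genes) and 13 lower (18.5% of all genes). The 8 higher were Pfkfb3, Pfkfb4 and Eno2 of the glycolysis arm, and Hif1a, Epas1, Bnip3l, Ndrg1 and P4ha2 of the HIF arm. The 13 lower were Slc2a1, Slc2a3, Slc16a1, Slc16a3, Pfkl, Aldoc, Pgk1 and Eno1 of the glycolysis arm, and Pdk1, Car9, Ero1l, P4ha1 and Ddit4 of the HIF arm. Log2 fold changes without it were -2.82 for Slc2a1, -2.04 for Slc16a3, -2.06 for Pgk1, -2.90 for Ero1l, -2.85 for Car9 and -1.55 for Car12, each over 1.5 times as large a fold as with all libraries. Without KO replicate 3, Epas1 was at 2.60 and Bnip3l at 0.11. With all 6 libraries, DESeq2 called 4 higher, those of edgeR (17.5% of all genes), and 12 lower (6.68% of all genes). These 12 were Slc2a1, Slc16a1, Slc16a3, Pfkl, Aldoc, Tpi1, Pgk1, Eno1 and Ldha, and Car9, Ero1l and Ddit4. Without KO replicate 1, or without any 1 of the WT replicates, edgeR called 0 of all genes, with 7, 13, 11 and 11 of the 39 at an unadjusted p under 0.05 (17.9, 25.0, 22.0 and 21.8% of all genes). WT replicate 1, the library with the high ribosomal share, is among these. Without KO replicate 3, Epas1, Ndrg1 and Aldoc remained called. Epas1, Ndrg1 and Aldoc kept their direction in all 14 alternative fits, with log2 fold changes of 2.60 to 3.71, 2.35 to 3.22 and -1.75 to -1.53 when 1 library was left out.

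Other genes of these pathways were read from the same fit. Of all genes 11.2% were called higher and 0.226% lower, and no count below is read as particular to a list. Of 25 further HIF targets, 4 rose, 0 fell and 21 did not pass, with a median log2 fold change of -0.22. The 4 were Angptl4, an inhibitor of lipoprotein lipase (105 ± 66.2 CPM in KO, 8.0 ± 2.45 CPM in WT, log2 fold change 3.72), Lox, which crosslinks collagen (186 ± 81.6 and 29.2 ± 11.6 CPM, 2.67), Hmox1, which degrades heme and is high in macrophages (297 ± 246 and 42.4 ± 7.17 CPM, 2.81), and Stc2, a secreted glycoprotein (10.4 ± 3.90 and 1.62 ± 0.376 CPM, 2.67). Of 12 genes of the HIF machinery, 1 rose, Arnt2, a partner of the alpha subunits (2.87 ± 1.15 and 0.626 ± 0.124 CPM, 2.19), and the median was 0.13.

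Among 15 other isozymes and genes of glucose synthesis, 10 were tested and 3 rose. Hk3, the hexokinase of myeloid cells, was at 138 ± 57.1 CPM in KO against 25.5 ± 7.62 CPM in WT (log2 fold change 2.44, SE 0.42, adjusted p = 0.0246, edgeR). Pgam2, the muscle mutase (20.6 ± 15.6 and 2.74 ± 0.731 CPM, 2.91), and Slc2a4, the glucose transporter GLUT4 of muscle and fat (4.69 ± 3.42 and 0.485 ± 0.130 CPM, 3.26), also rose. These isozymes of myeloid cells and muscle were higher in the same libraries in which the macrophage and muscle markers were higher, and whether the 2 are linked was not tested. Of 27 genes of pyruvate dehydrogenase and the citric acid cycle, Pdk4 (25.2 ± 15.3 and 1.38 ± 0.369 CPM, 4.19) and Pdk2 (22.9 ± 13.0 and 4.66 ± 0.582 CPM, 2.29), kinases of the same family as Pdk1, rose, 0 fell and the median was -0.25. Of 10 pentose phosphate genes 0 were called in either direction, and the median was 0.01.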

How the data were processed

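Bulk RNA-seq was run on 3 KO and 3 WT libraries. The authors deposited 1 table of raw counts per gene with merged exon lengths, in the layout of featureCounts per the file headers. The build mm10 and the tool DESeq2 are named per the submitters' processing notes. Not given in the sources used here are the aligner, how strand was set, which annotation release was used and how multiply aligned reads were handled, and reads of overlapping genes cannot be told apart without strand. Column headers carry serial numbers whose meaning is not stated; KO and WT numbers do not interleave, so any batch they stand for cannot be told apart from genotype. Replicate numbers follow accession order and only name a library. No columns were left out.

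KO was compared with WT across all genes with edgeR 4.0.16 in R 4.3.3 (TMM scaling, filterByExpr defaults, quasi-likelihood F test, two-sided, group as the only term). The 18621 genes tested held 99.9% of all counts. Adjustment over these genes was by the Benjamini-Hochberg method, with a threshold of 0.05. Standard errors were taken as the absolute log2 fold change over the square root of F. Alternatives were RLE or no composition scaling, no low-count filter, a mean CPM of at least 1, DESeq2 1.42.0, limma-voom (limma 3.58.1) with and without quality weights, robust fitting, and leaving out each library. Isozyme shares were also computed without exon length. The scripts were tested on simulated data. Library totals were 24369359 to 40574093 counts, so the 3 counts that a count of 0 still allows were 0.0820 to 0.150 CPM; without molecular identifiers this covers counting error only. No pair of libraries agreed within sampling noise (closest pair, WT replicates 2 and 3, chi-square of 10.2 per degree of freedom).

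Gene positions come from GENCODE M21. Near-identical copies were searched with blastn (95% identity over 200 bases or more), and 11 of the 39 genes had any. Exons of other genes overlapped those of 13 of the 39. Beside the genes for which this is given above, they covered 11.5% of the exonic bases of Gpi1, 10.7% of Pfkm, 9.29% of Car9 and 8.11% of Hif1a. Values in every library are given for genes past the threshold and, in each arm, for the 6 with the smallest p and the 6 with the highest level per length; Slc2a1, Car9, Pfkm and Eno2 were added after their values were seen. In the lists of other pathway genes up to 4 with the smallest p are named. The genes and lists were chosen with earlier results of these data known, and no list was tested as a set.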

Additional observations from a re-analysis of the deposited data

How the results depend on the processing

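The counts of calls depended on the processing far more than the estimates. Over the alternatives, 34 of the 39 genes kept the sign of their log2 fold change in all 14 fits. The exceptions were not called in any of them, apart from Egln3, called lower with quality weights: Pfkm was at 0.055 with quality weights, and leaving out 1 library gave -0.19 to 0.073 for Hk1, -0.33 to 0.040 for Pfkm, -0.065 to 0.39 for Aldoa, -0.12 to 0.35 for Adm and -0.51 to 0.11 for Egln3. In the glycolysis arm, 2 genes were called higher with all libraries and the chosen settings, 1 without composition scaling, 0 with limma-voom and 0 to 3 leaving out 1 library. The glycolysis genes called lower numbered 1, and 2 with RLE scaling, 4 with no low-count filter, 2 at a mean CPM of at least 1, 9 with DESeq2, 13 with quality weights and 0 to 8 leaving out 1 library. In the HIF arm, the 2 called higher became 4 with quality weights and 0 to 5 leaving out 1 library. The 0 called lower became 2 with no low-count filter, 3 with DESeq2, 9 with quality weights and 0 to 5 leaving out 1 library. Over all genes, the 2083 called higher became 3266 with DESeq2, 988 with limma-voom, 5531 with quality weights and 0 to 4449 leaving out 1 library. The 42 called lower became 24 without composition scaling, 476 with no low-count filter, 1244 with DESeq2, 4749 with quality weights and 0 to 3629 leaving out 1 library. The cause of these differences was not tested, except that leaving out a library leaves fewer samples. In the fits with 0 calls, 3461 genes (without KO replicate 1), 4931, 4282 and 4246 (without WT replicates 1, 2 and 3) had an unadjusted p under 0.05.

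The median log2 fold change stayed below 0 in each arm, at -0.68 to -0.45 for glycolysis and -0.46 to -0.26 for the HIF arm when 1 library was left out. RLE scaling and no composition scaling moved the median of all genes from -0.05 to -0.12 and -0.18, so estimates near 0 are not firm in sign. Without exon length, the difference in the share of Pfkp among phosphofructokinase subunits was 7.61 in place of 3.44 percentage points, that of Slc2a3 in its pair 16.5 in place of 10.5, and that of Pfkm 5.57 in place of 10.2. Siglece stayed lower in each fit, with an adjusted p of 0.00275 to 0.144 when 1 library was left out. No paired analysis was possible because the labels carry no replicate numbers that tie a KO library to a WT library. With 3 libraries per group, a value that missed the threshold does not show that the groups did not differ.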
